A study of Mus musculus with 12 samples.

Results

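The genes that write, read and erase DNA methylation and histone marks, with the enzymes that remodel nucleosomes, were followed as a set of 42 members in hematopoietic cells with a mutated PU.1. The set was drawn up by gene name and known role, with earlier results of these data known, and no measured value enters its rule. It was divided by role into 7 genes of DNA methylation, 14 Polycomb genes, 8 genes of deacetylases and the CoREST complex, 6 histone methylases and demethylases, and 7 acetyltransferases, remodelers and chromatin organizers. The 42 members were among 18193 genes measured on Affymetrix MG430 v2 arrays, and 108 of the 45037 probe sets tested read them. Each gene was read by its brightest probe set, judged by the mean of the 12 arrays. Levels are on the log2 scale of RMA, in which a difference of 1 is a change by a factor of 2.

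The 12 arrays held 4 groups of 3. KI ST-HSC and KI GMP came from newborn liver of mice homozygous for a germline knock-in of PU.1 Q202L, a substitution that the study selected for lost binding to c-Jun with DNA binding kept, and WT ST-HSC and WT GMP came from wild-type newborns of the same breeding. All were labelled C57Bl/6 and newborn, although the study's text describes fetal liver and a mixed strain. ST-HSC, the short-term hematopoietic stem cells, were sorted as lin- Sca-1+ c-kit+ CD150- with CD48+ in the sample labels and CD48- in the series title, and GMP, the granulocyte-monocyte progenitors, as CD34+ FcgRII/IIIhi cells among lin- Sca-1- c-kit+ cells. The study's text calls the KI cells GMP-like and gives them an intermediate CD34 gate, where the labels give 1 gate for both, so genotype and sort gate cannot be told apart in the GMP comparison. The knock-in is in every cell of the animal, so effects in the sorted cells and in earlier or other cells cannot be told apart. The animals behind the arrays were not named, so p-values measure only how these samples vary, and that variation may be technical.

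DNA methyltransferases place methyl groups on cytosines, of which Dnmt1 copies the pattern at replication and Dnmt3a and Dnmt3b lay down new ones, and the Tet enzymes oxidize the mark and so begin its removal. Polycomb complexes silence genes by methylating histone H3 and ubiquitinating histone H2A, while deacetylases, demethylases and acetyltransferases shift promoters and enhancers between closed and open states. In blood formation these enzymes are known for holding stem cell self-renewal and lineage choice in balance, and several of them, Tet2, Dnmt3a, Asxl1, Ezh2 and Kmt2a among them, are recurrently mutated or rearranged in leukemia.

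Several facts of the whole series bear on the members. Array medians were 5.00 to 5.10 in ST-HSC and 4.70 to 4.79 in GMP, so levels were compared only between KI and WT of a population. Spi1, the gene of PU.1, differed by 0.17 (adjusted p = 0.798) in ST-HSC and by 0.39 (adjusted p = 0.384) in GMP, but its level does not read the point mutation. Xist, which is transcribed from an inactive X, was at 10.67 to 11.74 in WT replicates 1 and 3 of both populations and at 2.98 to 3.78 in the other 8 arrays, which include every KI array. The Mpo and Cd48 transcripts were high in all 4 groups, with means of 13.07 to 13.52 for Mpo and of 10.98 to 11.84 for Cd48. The list of 7 granulocyte-monocyte progenitor markers, which holds Mpo, was lower in KI GMP, averaging 10.63 to 11.08 against 11.98 to 12.04 in WT GMP. There 1 of its genes was called lower and 0 higher. In ST-HSC the list averaged 10.01 to 10.6 in KI and 9.97 to 11.02 in WT, with 2 genes called higher and 1 lower. Of 10 monocyte and macrophage markers, 8 fell in KI ST-HSC and 7 in KI GMP, and the mean level of the list was 4.87 to 5.25 in KI ST-HSC arrays against 9.14 to 10.01 in WT. Of 9 B lymphoid markers, 4 fell in KI ST-HSC, with Rag1 at 3.03 against 7.50, while Pax5 and Ebf1 stood at 4.71 against 4.97 and 4.59 against 4.83. Of 8 stem and multipotent progenitor markers Flt3 and Cd34 fell and Slamf1, the CD150 gene, rose in KI ST-HSC, and Cd34 fell by 2.87 in KI GMP. Of 9 erythroid, 8 megakaryocyte and 6 mast cell and basophil markers, 3, 3 and 4 rose in KI ST-HSC. In KI GMP none of the erythroid markers passed the test, but their median difference was 1.18 and the list averaged 6.38 to 6.78 in KI against 5.42 to 5.93 in WT. There 2 megakaryocyte markers rose with a list median of 0.16, and of the mast cell and basophil markers 2 rose and 1 fell. The 21 cell cycle genes averaged 10.09 to 10.24 in KI ST-HSC and 10.09 to 10.25 in WT, and of them Mki67 rose by 1.17 (adjusted p = 0.0122) in KI ST-HSC and differed by 0.85 (adjusted p = 0.0576) in GMP. They averaged 9.79 to 9.91 in KI GMP and 10.06 to 10.14 in WT GMP. Of 7 hepatocyte markers 1 fell in KI ST-HSC and 1 in KI GMP. That list averaged 5.783 to 5.975 in KI ST-HSC against 6.219 to 7.171 in WT. In GMP it averaged 5.301 to 5.839 in KI and 5.607 to 6.783 in WT. In bulk RNA of sorted cells, fewer cells of a type and less RNA per cell cannot be told apart.

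Across the 42 members few transcripts differed between KI and WT. In ST-HSC the chromatin organizer Satb1 fell and the remodeler Chd7 rose, which is 2 of 42 or 4.76% of the members. Of all genes 3.01% were called in that comparison at an adjusted p under 0.05 (1.33% higher and 1.68% lower), and of all probe sets 2.21%. In GMP the deacetylase Hdac7 alone rose, which is 2.38% of the members, against 2.59% of all genes (1.19% higher and 1.40% lower) and 2.13% of all probe sets. The shares of members called in either population were thus near the background.

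Without adjustment, 8 members had a p under 0.05 in ST-HSC (19.0%, against 14.3% of all genes), 6 of them higher and 2 lower in KI. In GMP there were 7 such members (16.7%, against 15.9% of all genes), 6 higher and 1 lower. All 3 KI arrays lay on one side of all 3 WT arrays for 11 members in ST-HSC and for 8 in GMP. These were 26.2% and 19.0% of the members, and the same held for 22.0% and 19.4% of all genes. The median difference, KI minus WT, was 0.14 over the members and -0.02 over all genes in ST-HSC, and 0.09 and -0.03 in GMP. Sizes were mostly small, under 0.5 for 32 members in ST-HSC and 35 in GMP. The 95% interval of the difference lay within 1 of 0 on both sides for 22 members in ST-HSC and for 28 in GMP.

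These medians were also taken without the WT arrays of high Xist and with Xist as a covariate. Without those 4 arrays the median over the members was 0.04 in ST-HSC and -0.002 in GMP, in a fit that leaves 1 WT array a population and takes the spread from the other groups. With Xist as a covariate it was 0.053 in ST-HSC and 0.093 in GMP, where it did not move. With single arrays left out it was 0.078 to 0.168 in ST-HSC and 0.028 to 0.148 in GMP. The cause of these moves was not tested. Of the 20 members given by array below, 11 in ST-HSC and 13 in GMP turned sign or moved by over 1.5 times without the Xist-high WT arrays. With the covariate 8 in each did so. Every KI array was low in Xist, so the covariate was fitted almost wholly on the WT arrays. It moves the comparison toward KI against WT replicate 2, much as leaving out the other WT arrays does. These fits are therefore not separate checks.

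**Figure D1:**
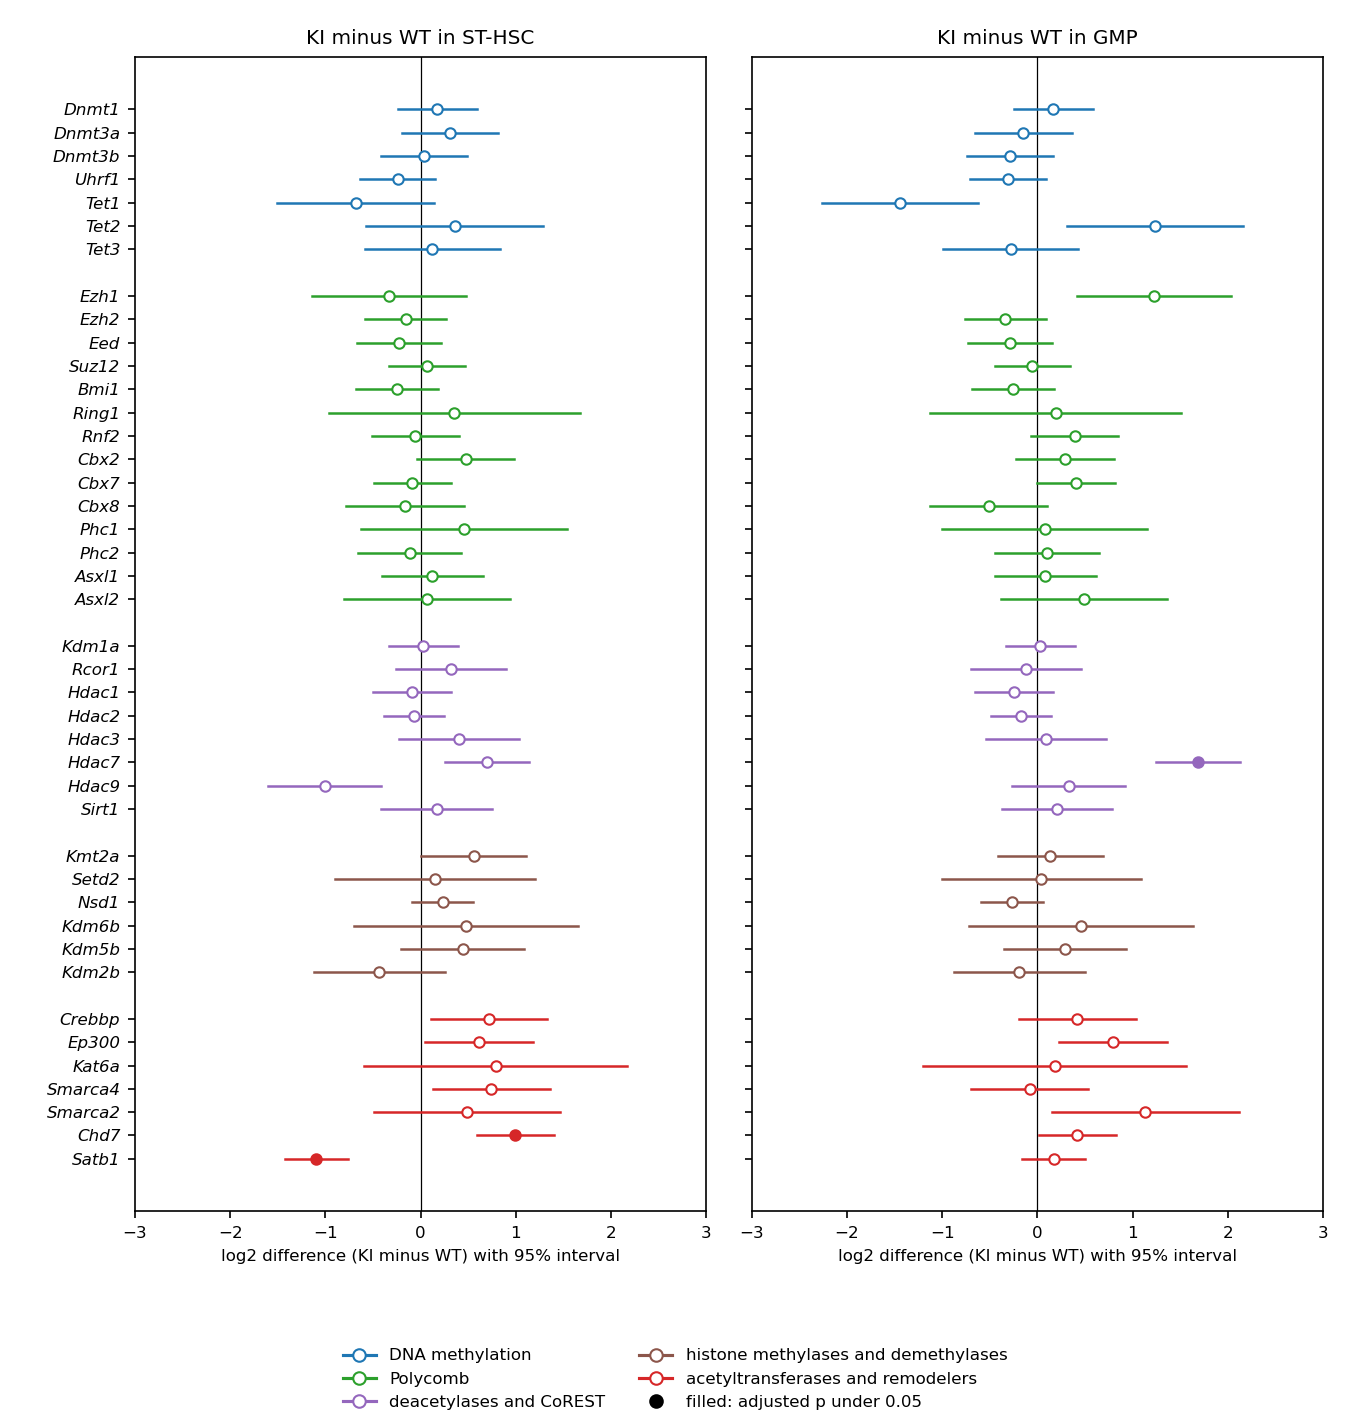
KI minus WT log2 differences of the 42 members in ST-HSC (left) and GMP (right), with 95% intervals from the fit over all 12 arrays, coloured by role, and filled where the adjusted p was under 0.05. Only Satb1 at -1.10 and Chd7 at 1.0 in ST-HSC and Hdac7 at 1.69 in GMP are filled, and the Polycomb genes in ST-HSC all lie within 0.5 of 0.

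The DNA methylation genes were not separated in ST-HSC. Of 7 members none passed the test in either population, their median difference was 0.12 in ST-HSC and -0.28 in GMP, and no member had KI and WT arrays apart in ST-HSC. In GMP the Tet genes spread most, from -1.44 for Tet1 to 1.24 for Tet2, and Tet1, Tet2 and Uhrf1 had their arrays apart. Of all genes, 22.0% had arrays apart in ST-HSC and 19.4% in GMP. Dnmt1, the maintenance enzyme, averaged 11.57 in KI and 11.39 in WT ST-HSC, and 11.43 and 11.26 in GMP. Its differences of 0.18 (95% interval -0.24 to 0.59) and 0.17 (-0.25 to 0.59) had intervals that exclude a change by a factor of 2. Dnmt3a averaged 10.14 in KI and 9.83 in WT ST-HSC, and 10.02 and 10.17 in GMP, and one of its 5 probe sets, 1423066_at, was lower in every KI array of both populations, by -0.47 (adjusted p = 0.151) in ST-HSC and -0.55 (adjusted p = 0.0861) in GMP.

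Dnmt3b, the other de novo methyltransferase, was at 9.93, 9.99 and 10.15 in KI ST-HSC and at 9.68, 10.36 and 9.93 in WT ST-HSC. In GMP it was at 9.13, 8.60 and 8.55 in KI and at 9.03, 9.19 and 8.91 in WT. KI and WT arrays overlapped in both, with differences of 0.03 (95% interval -0.42 to 0.49) and -0.29 (-0.74 to 0.17). In ST-HSC the sign turned with Xist as a covariate (-0.23) and without the Xist-high WT arrays (-0.34). Uhrf1, which brings Dnmt1 to newly replicated DNA, was at 10.50, 10.29 and 10.38 in KI and 10.31, 10.80 and 10.78 in WT ST-HSC. The GMP arrays were at 10.20, 10.25 and 9.88 in KI and 10.28, 10.29 and 10.67 in WT. The GMP arrays did not overlap but KI replicates 1 and 2 came within 0.1 of the lowest WT array, and the difference of -0.31 had an adjusted p of 0.501.

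Tet1, one of the 5-methylcytosine oxidases, was at 5.50, 4.43 and 4.21 in KI GMP and at 6.59, 5.56 and 6.31 in WT GMP. Every KI array was below every WT array, though KI replicate 1 nearly met WT replicate 2. The difference was -1.44 (SE 0.372, 95% interval -2.27 to -0.62, adjusted p = 0.0816). All 4 Tet1 probe sets were lower in KI GMP, by -0.37 to -1.65, and 1419896_at passed the test on its own: it was at 3.87, 3.34 and 4.27 in KI and 5.56, 5.06 and 5.81 in WT, a difference of -1.65 (SE 0.253, adjusted p = 0.00903). This probe set is dim: its KI values were below the median of their arrays, and every GMP value was under 6. In ST-HSC the brightest probe set was at 6.15, 6.27 and 6.76 in KI and 6.64, 7.25 and 7.35 in WT, which overlapped (difference -0.68, adjusted p = 0.499). Tet1 was thus not called in GMP in the main fit, and whether it passed depended on the fit. Its adjusted p in limma was 0.0494 when dim probe sets were left out first and 0.0270 without KI GMP replicate 1. With its probe sets averaged the difference was -1.11 (adjusted p = 0.0178 in limma). Without the Xist-high WT arrays the difference was -0.85, in a fit with 1 WT GMP array.

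Tet2, the family member most often mutated in myeloid disease, ran the other way in GMP. It was at 8.28, 8.94 and 9.24 in KI GMP and at 7.84, 8.24 and 6.67 in WT GMP. The arrays were apart by little, KI replicate 1 against WT replicate 2, and WT replicate 3 was low. The difference was 1.24 (SE 0.419, 95% interval 0.31 to 2.16, adjusted p = 0.184), and the second Tet2 probe set gave 1.33 (adjusted p = 0.0931) with its KI arrays at 5.17, 5.48 and 5.80 and its WT arrays at 3.72, 4.77 and 3.97. The difference of the brightest probe set in GMP was 0.64 with Xist as a covariate and 0.59 without the Xist-high WT arrays (adjusted p = 0.702). In ST-HSC Tet2 was at 7.26, 7.25 and 8.04 in KI and 7.07, 7.65 and 6.76 in WT, and the arrays overlapped (difference 0.36, adjusted p = 0.816), with the sign turned under both Xist settings (-0.25 and -0.14). Tet3, the third oxidase, averaged 7.91 in KI and 7.79 in WT ST-HSC, and 7.39 and 7.67 in GMP.

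The Polycomb genes were the most even group in ST-HSC. None of the 14 members passed the test in either population, none had its arrays apart in ST-HSC, and all differences there were under 0.5, from -0.33 for Ezh1 to 0.48 for Cbx2. The median was -0.07 in ST-HSC and 0.09 in GMP. In GMP only Ezh1 had its arrays apart. The shares of all genes with arrays apart were 22.0% in ST-HSC and 19.4% in GMP. For 11 of the 14 in ST-HSC and 9 in GMP, the 95% interval excluded a change by a factor of 2 in either direction.

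The core of the complex that methylates histone H3 was read by Ezh1 and Ezh2, its alternative catalytic subunits, and by Eed and Suz12, which both forms need. Ezh1 was at 7.45, 7.01 and 7.19 in KI GMP and at 6.82, 5.72 and 5.44 in WT GMP. All KI arrays were higher, and WT replicate 1 was the nearest to them. The difference was 1.22 (SE 0.366, 95% interval 0.41 to 2.03, adjusted p = 0.129), and without WT GMP replicate 1 it was 1.63 with an adjusted p of 0.0416. In ST-HSC Ezh1 was at 7.24, 6.63 and 6.92 in KI and 7.21, 6.73 and 7.84 in WT, which overlapped (difference -0.33, adjusted p = 0.802), and the sign turned under both Xist settings (0.06 and 0.20). The second probe set of Ezh1 gave 0.74 (adjusted p = 0.194) in GMP and -0.12 in ST-HSC, while the 2 dim ones gave -0.17 and 0.01 in GMP. Ezh2 averaged 9.66 in KI and 9.81 in WT ST-HSC, and 9.14 and 9.48 in GMP. Eed averaged 10.19 and 10.42 in ST-HSC and 10.00 and 10.29 in GMP. Suz12 was the most closely matched of these, with 10.64 in KI and 10.57 in WT ST-HSC and 10.42 and 10.47 in GMP.

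The complex that ubiquitinates histone H2A includes the ligases Ring1 and Rnf2, the partner Bmi1, the Cbx readers and the Phc subunits. Rnf2 was at 10.03, 9.81 and 10.15 in KI GMP and at 9.62, 10.01 and 9.18 in WT GMP. WT replicate 2 lay among the KI arrays, and the difference was 0.39 (95% interval -0.06 to 0.85, adjusted p = 0.44). It was 0.15 with Xist as a covariate and -0.013 without the Xist-high WT arrays. In ST-HSC it was at 9.67, 9.27 and 9.26 in KI and 9.36, 9.51 and 9.49 in WT, with a difference of -0.05. Cbx2 was at 7.16, 7.59 and 7.94 in KI ST-HSC and at 6.97, 7.29 and 7.01 in WT. Only KI replicate 1 overlapped the WT arrays, and the difference was 0.48 (95% interval -0.04 to 0.99, adjusted p = 0.426). In GMP Cbx2 was at 5.74, 5.79 and 6.18 in KI and 5.58, 5.95 and 5.32 in WT, with a difference of 0.29 that was 0.012 with Xist as a covariate and -0.047 without the Xist-high WT arrays.

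Cbx7, a reader known from stem cell self-renewal, was at 6.04, 5.79 and 6.37 in KI GMP and at 5.60, 5.83 and 5.54 in WT GMP. KI replicate 2 fell just under WT replicate 2, and the difference was 0.40 (adjusted p = 0.35). In ST-HSC Cbx7 was at 5.81, 5.80 and 5.77 in KI and 6.18, 5.84 and 5.61 in WT. The KI arrays lay within the WT range. Of the others, Cbx8 averaged 5.26 in KI and 5.42 in WT ST-HSC, and 4.35 and 4.86 in GMP. Bmi1, needed for stem cell self-renewal, averaged 8.93 and 9.18 in ST-HSC and 8.76 and 9.02 in GMP. Ring1 averaged 8.31 and 7.96 in ST-HSC, where WT replicate 2 was low at 6.28, and 8.90 and 8.71 in GMP. The Phc genes code for the scaffold subunits. Phc1 averaged 7.57 and 7.12 in ST-HSC and 6.62 and 6.54 in GMP, and Phc2 8.56 and 8.68 in ST-HSC and 7.91 and 7.81 in GMP. The Asxl proteins work with the enzyme that removes ubiquitin from histone H2A. Asxl1 averaged 9.36 in KI and 9.23 in WT ST-HSC, and 9.39 and 9.31 in GMP. Asxl2 averaged 8.18 and 8.11 in ST-HSC and 8.24 and 7.75 in GMP.

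Among deacetylases and CoREST genes the class IIa enzymes Hdac7 and Hdac9 had the largest differences between KI and WT. Of 8 members 1 passed the test, Hdac7 in GMP. The median difference of the group was 0.10 in ST-HSC and 0.06 in GMP. Class IIa deacetylases are corepressors that bind MEF2 factors and move between nucleus and cytoplasm.

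Hdac7, known in lymphocyte development, was at 9.37, 9.26 and 9.76 in KI GMP and at 8.07, 7.41 and 7.85 in WT GMP. The lowest KI array was above the highest WT array by more than the range of either group. It rose by 1.69 (SE 0.2, 95% interval 1.25 to 2.13, adjusted p = 0.00209). In ST-HSC it was at 9.27, 8.91 and 8.86 in KI and 8.23, 8.32 and 8.39 in WT, again with every KI array above, and the difference was 0.70 (95% interval 0.26 to 1.14, adjusted p = 0.124). The GMP difference exceeded that of ST-HSC by 0.99 (95% interval 0.36 to 1.61, adjusted p = 0.33), which did not pass the test. The second Hdac7 probe set was at 8.18, 7.38 and 7.50 in KI GMP and 6.69, 7.04 and 6.73 in WT GMP, with no overlap and a difference of 0.87 (adjusted p = 0.0608). Without the Xist-high WT arrays the Hdac7 call in GMP held, with a difference of 2.06 and an adjusted p of 0.0337. Several marker lists moved in the same arrays. The erythroid, megakaryocyte, T and NK and endothelial lists all averaged higher in every KI GMP array than in WT, with 0 of 9, 2 of 8, 1 of 6 and 1 of 6 genes called higher, while 7 of 10 monocyte and macrophage genes fell. The megakaryocyte list averaged 5.43 to 5.62 in KI and 4.81 to 5.20 in WT, the T and NK list 5.52 to 5.91 and 5.15 to 5.31, and the endothelial list 4.87 to 5.05 and 4.58 to 4.71. The granulocyte-monocyte progenitor, stem and multipotent progenitor and cell cycle lists averaged lower in every KI GMP array than in WT. Of their genes 1 of 7, 1 of 8 and 0 of 21 were called lower. The first averaged 10.63 to 11.08 in KI and 11.98 to 12.04 in WT, and the second 5.77 to 6.33 and 6.68 to 7.12. Their part in the result was not tested.

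Hdac9 was lower in KI ST-HSC, at 6.42, 6.63 and 6.53, than in WT ST-HSC, at 7.21, 7.28 and 8.11. No arrays overlapped, and WT replicate 3 stood above the other two. The difference was -1.01 (SE 0.269, 95% interval -1.60 to -0.41, adjusted p = 0.101). Its dimmer probe set, 1434572_at, passed the test, with KI arrays at 2.70, 2.80 and 2.92 and WT arrays at 3.68, 4.36 and 4.70, a difference of -1.44 (SE 0.309, adjusted p = 0.0397). All of these values were below the median of their arrays, where signal is weak. In GMP Hdac9 was at 4.50, 5.34 and 4.54 in KI and at 4.43, 4.57 and 4.39 in WT. There the arrays overlapped and the difference was 0.33 (adjusted p = 0.677). The KI minus WT differences of the populations were 1.33 apart (95% interval 0.49 to 2.17, adjusted p = 0.33). When all probe sets of a gene were averaged, Hdac9 was called in ST-HSC, at -1.22 with an adjusted p of 0.0222. That mean includes the weak probe set.

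The class I enzymes Hdac1, Hdac2 and Hdac3 form the catalytic core of several corepressor complexes. Hdac1 was at 10.76, 10.76 and 10.96 in KI ST-HSC and at 10.78, 10.92 and 11.03 in WT ST-HSC. In GMP it was at 10.70, 10.67 and 10.23 in KI and at 10.43, 11.01 and 10.90 in WT. KI and WT overlapped in both, with differences of -0.09 and -0.25 (adjusted p = 0.63 in GMP). Hdac3 was at 9.18, 8.98 and 9.20 in KI ST-HSC and at 8.97, 8.13 and 9.06 in WT, where replicate 2 was low. The GMP arrays were at 8.83, 8.82 and 9.27 in KI and 8.88, 8.42 and 9.36 in WT. Its differences were 0.40 (adjusted p = 0.642) and 0.09. They were larger with Xist as a covariate, at 0.95 (adjusted p = 0.0624) in ST-HSC and 0.63 in GMP. Without the Xist-high WT arrays, where replicate 2 alone stands for WT, they were 0.995 and 0.56. Hdac2 averaged 12.16 in KI and 12.23 in WT ST-HSC, and 11.99 and 12.17 in GMP. Kdm1a, the demethylase of CoREST, had differences of 0.03 (95% interval -0.33 to 0.39) in both ST-HSC and GMP by its brightest probe set, with means between 10.05 and 10.18. Its second probe set gave 0.61 (adjusted p = 0.57) in ST-HSC and -0.39 (adjusted p = 0.74) in GMP. Its scaffold Rcor1 averaged 7.77 and 7.45 in ST-HSC and 7.55 and 7.67 in GMP. Sirt1, an NAD-dependent deacetylase, averaged 5.96 and 5.79 in ST-HSC and 6.27 and 6.06 in GMP.

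The 6 histone methylases and demethylases had no called member. Of them 4 had their arrays apart in ST-HSC, 3 higher and 1 lower in KI, as did 22.0% of all genes. The median difference was 0.34 in ST-HSC and 0.09 in GMP, and no member had its arrays apart in GMP, against 19.4% of all genes. Kmt2a, the methylase that keeps Hox genes active and is rearranged in leukemia, was at 7.01, 7.39 and 7.77 in KI ST-HSC and at 6.92, 6.89 and 6.68 in WT. KI arrays were all higher, and the difference was 0.56 (95% interval 0.01 to 1.11, adjusted p = 0.376). In GMP it was at 7.48, 6.83 and 6.59 in KI and 6.59, 6.98 and 6.93 in WT, with a difference of 0.13. Nsd1, another H3 methylase, was at 11.39, 11.39 and 11.44 in KI ST-HSC and 11.20, 11.26 and 11.06 in WT. KI was higher throughout but by only 0.23 (adjusted p = 0.578). In GMP Nsd1 was at 10.64, 11.15 and 10.74 in KI and 11.16, 11.17 and 11.01 in WT, which overlapped, with a difference of -0.27 (adjusted p = 0.461).

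Kdm5b, which removes methyl groups from active promoters, was at 10.28, 10.37 and 10.31 in KI ST-HSC and at 10.04, 9.38 and 10.23 in WT. The KI arrays were above by little, WT replicate 2 was low, and the difference was 0.44 (adjusted p = 0.61). The GMP arrays were at 9.68, 9.77 and 10.53 in KI and 9.53, 10.19 and 9.40 in WT, with a difference of 0.29. Without the Xist-high WT arrays these were 0.94 (adjusted p = 0.233) and -0.20. Kdm2b, which binds unmethylated CpG islands and brings a Polycomb complex there, was at 8.25, 8.16 and 8.56 in KI ST-HSC and at 9.02, 8.60 and 8.65 in WT. It was lower in every KI array, with a difference of -0.43 (adjusted p = 0.647). In GMP it was at 8.88, 8.24 and 7.56 in KI and 8.81, 8.43 and 8.02 in WT, and the arrays overlapped. Setd2, the methylase that travels with transcribing polymerase, averaged 8.19 and 8.04 in ST-HSC and 8.07 and 8.02 in GMP. Kdm6b, a demethylase that opposes Polycomb, averaged 7.91 in KI and 7.44 in WT ST-HSC, and 8.19 and 7.73 in GMP.

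The acetyltransferases and remodelers held both members called in ST-HSC. Of 7 members, Chd7 rose and Satb1 fell there, and 5 had their arrays apart, of which Crebbp, Ep300, Smarca4 and Chd7 were higher and Satb1 was lower in KI, against 22.0% of all genes with arrays apart. The median difference was 0.72 in ST-HSC and 0.42 in GMP. In GMP no member passed the test, and Ep300, Smarca2 and Chd7 had all KI arrays above WT. Arrays were apart there for 19.4% of all genes. Arrays in groups of 3 against 3 cannot give an exact permutation p below 0.1, so the separation of the arrays carries no call by itself.

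Crebbp and Ep300 are paired acetyltransferases that many transcription factors recruit. Crebbp averaged 9.59 in KI and 8.87 in WT ST-HSC, a difference of 0.72 (adjusted p = 0.285), and 9.42 and 9.0 in GMP. Without WT GMP replicate 2 it was called in ST-HSC, with an adjusted p of 0.0481. Ep300 was at 5.04, 5.30 and 6.15 in KI ST-HSC and at 4.86, 4.91 and 4.89 in WT ST-HSC. KI replicate 3 was well above the other two, and the difference was 0.61 (95% interval 0.04 to 1.18, adjusted p = 0.339). The GMP arrays were at 5.60, 5.60 and 6.03 in KI and 5.12, 4.71 and 5.02 in WT, again apart, with a difference of 0.79 (95% interval 0.22 to 1.36, adjusted p = 0.164). Ep300 was read by a single probe set. Kat6a, an acetyltransferase needed by stem cells, averaged 9.06 in KI and 8.27 in WT ST-HSC, where WT replicate 2 was low at 6.63, and 8.59 and 8.41 in GMP.

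Smarca4 and Smarca2 are the alternative motors of the SWI/SNF complexes. Smarca4 was at 9.63, 9.68 and 10.12 in KI ST-HSC and at 9.21, 8.99 and 9.0 in WT. All KI arrays were higher, by 0.74 on average (95% interval 0.13 to 1.36, adjusted p = 0.267). In GMP it was at 9.13, 9.52 and 8.64 in KI and 9.26, 8.64 and 9.63 in WT, with overlap and a difference of -0.08, which turned to 0.25 and 0.46 under the Xist settings. Smarca2 averaged 8.32 and 7.84 in ST-HSC, with WT replicate 2 low at 6.77, and 8.82 in KI and 7.68 in WT GMP. Its GMP difference was 1.13 (adjusted p = 0.26), and its other probe set gave -0.32.

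Chd7, a nucleosome remodeler bound to enhancers, was at 8.18, 7.98 and 8.39 in KI ST-HSC and at 7.39, 6.87 and 7.29 in WT ST-HSC. No KI array came within 0.5 of a WT array. It rose by 1.0 (SE 0.184, 95% interval 0.59 to 1.40, adjusted p = 0.0185), and its second probe set gave 0.92 (adjusted p = 0.402). In GMP Chd7 was at 8.75, 9.23 and 8.89 in KI and at 8.67, 8.51 and 8.43 in WT. KI was higher in every array but less so, with a difference of 0.42 (95% interval 0.01 to 0.83, adjusted p = 0.33), and the difference between the populations was -0.58 (adjusted p = 0.636). The ST-HSC call was lost without KI ST-HSC replicate 1 (adjusted p = 0.0649), KI ST-HSC replicate 3 (0.0864) or WT ST-HSC replicate 2 (0.0510), and without the Xist-high WT arrays (0.0537, with a difference of 1.31). In the same arrays 3 of 9 erythroid, 3 of 8 megakaryocyte and 4 of 6 mast cell and basophil markers rose and 8 of 10 monocyte and macrophage markers fell. The B lymphoid, stem and multipotent progenitor and hepatocyte lists averaged lower in every KI ST-HSC array than in WT. Their part in the result was not tested.

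Satb1, a chromatin organizer that binds AT-rich DNA and is required in lymphoid development, was at 8.42, 8.57 and 8.71 in KI ST-HSC and at 9.65, 9.47 and 9.87 in WT ST-HSC. Every KI array was lower by more than 0.7. It fell by 1.10 (SE 0.149, 95% interval -1.43 to -0.77, adjusted p = 0.00347). The GMP arrays were at 8.95, 8.89 and 8.77 in KI and at 8.54, 8.90 and 8.66 in WT, which overlapped, with a difference of 0.17 (adjusted p = 0.7). The differences of the populations were 1.27 apart (95% interval 0.80 to 1.74, adjusted p = 0.0915), which did not pass the test. Without the Xist-high WT arrays the difference in ST-HSC was -0.91 and the adjusted p was 0.0705. In the same arrays the B lymphoid list was lower, averaging 4.19 to 4.36 in KI ST-HSC and 6.03 to 7.26 in WT. The monocyte and macrophage and the hepatocyte lists were lower as given above. The stem and multipotent progenitor list averaged 8.51 to 8.75 in KI ST-HSC and 8.85 to 9.04 in WT. The erythroid, megakaryocyte and mast cell and basophil lists averaged higher in every KI ST-HSC array than in WT. Their part in the result was not tested.

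**Figure D2:**
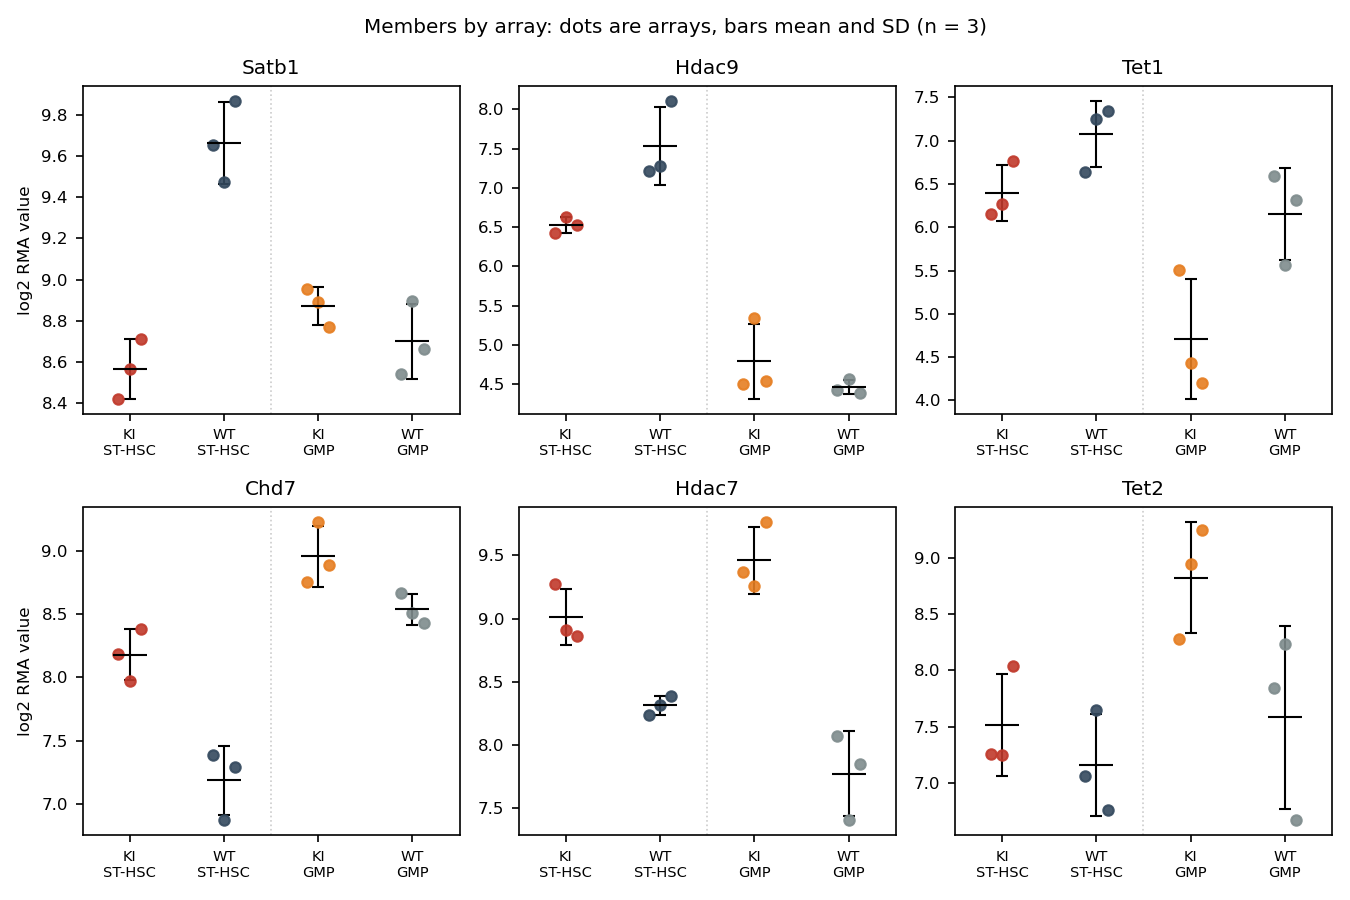
Log2 RMA values of Satb1, Hdac9, Tet1, Chd7, Hdac7 and Tet2 in each array (dots) with the mean and SD of 3 arrays (bars); the dotted line separates ST-HSC from GMP, whose levels are not on a common scale. KI and WT arrays are apart for Satb1, Hdac9, Chd7 and Hdac7 in ST-HSC and for Tet1, Chd7, Hdac7 and Tet2 in GMP.

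Satb1 had 5 probe sets, and all of them were lower in KI ST-HSC. The probe set 1436182_at was at 5.84, 5.66 and 6.09 in KI ST-HSC and at 8.13, 8.0 and 8.17 in WT ST-HSC. It fell by 2.23 (SE 0.256, adjusted p = 0.00134). In GMP the order was turned, with 6.41, 6.49 and 6.80 in KI and 5.85, 4.70 and 5.49 in WT, and it rose by 1.22 (SE 0.256, adjusted p = 0.0382). The difference between the populations, 3.46 (SE 0.363, adjusted p = 0.0108), passed the test. It was the single one of 108 member probe sets to do so, against 0.0488% of all probe sets. None of the 42 members did by its brightest probe set, against 0.0495% of all genes. Without adjustment 6 members had a p under 0.05, 4 with a positive and 2 with a negative difference between the populations. Of all 18193 genes, 679 had such a p with a positive and 858 with a negative difference. Of the other 3 Satb1 probe sets, 1416007_at gave -1.07 (adjusted p = 0.0723) in ST-HSC and 0.43 in GMP. The probe set 1439449_at gave -1.51 and 1.29, with adjusted p of 0.375 and 0.437. The dim 1439315_at gave -0.57 and -0.89 and was the only one lower in KI GMP. With all 5 averaged, the difference between the populations was 1.74 (adjusted p = 0.0211). The GMP call of 1436182_at was lost in 9 of 12 fits that left out 1 array (adjusted p of 0.0533 to 0.126), and the call between the populations without KI ST-HSC replicate 2 (0.0524). Its GMP call was also lost with the 6 arrays alone (adjusted p = 0.191), with trend and robust eBayes (0.0537), with SAM and with the methods' t-test (0.429). The methods' t-test did not call its fall in ST-HSC either (adjusted p = 0.0681).

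**Figure D3:**
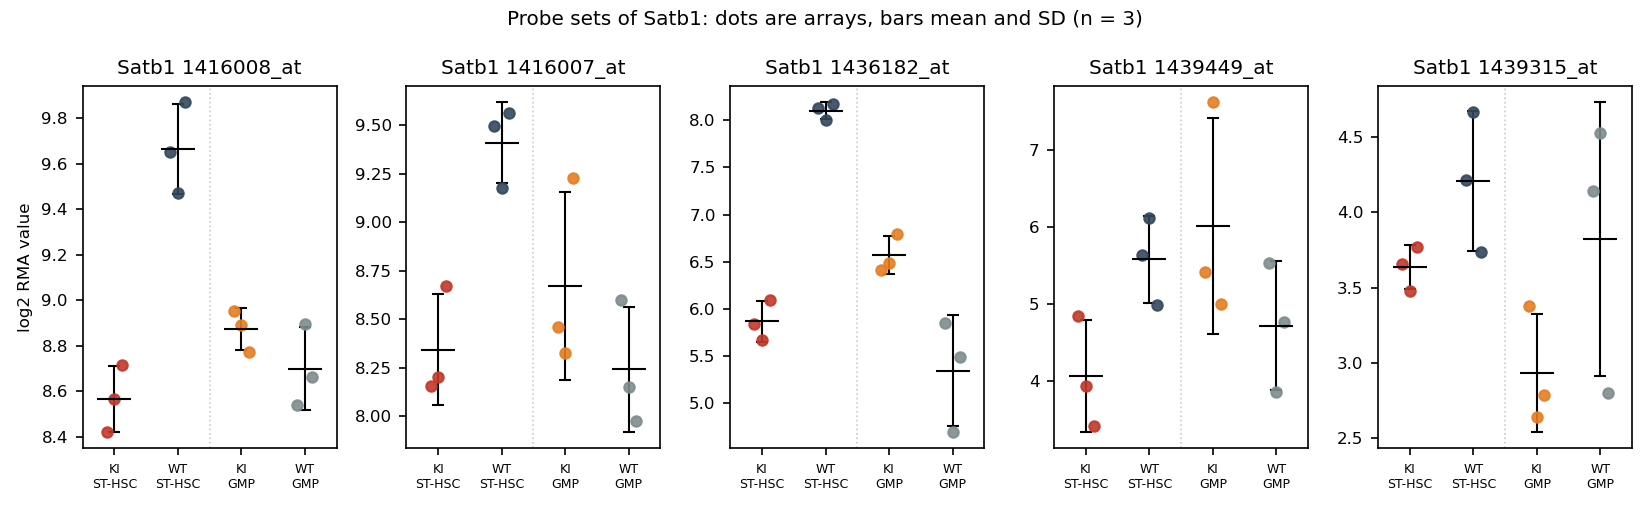
Log2 RMA values of the 5 Satb1 probe sets in each array (dots) with the mean and SD of 3 arrays (bars), each panel on its own axis. KI ST-HSC lies below WT ST-HSC in all 5 panels on average, by 0.57 to 2.23, while in GMP the KI mean is above WT in every panel except that of 1439315_at.

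Promoter sequence upstream of transcript starts was taken from RefSeq (GRCm38.p6) for 35 of the 42 member genes, in 53 windows of 250 bases. The motifs searched, on both strands, were the PU.1 core GAGGAA and the AP-1 site TGANTCA, to which c-Jun binds. The first of these reads TTCCTC on the opposite strand. The PU.1 core was in 15 of the 53 member windows (28.3%), of 11 genes, and in 23.3% of all 32851 windows. Windows of a gene can overlap, so 1 match can count in several windows, as it did for Dnmt3a and Satb1. TGANTCA was in 1 member window (1.89%) and in 6.75% of all windows. Satb1 and Hdac9, the members that were lower in KI ST-HSC with all arrays apart and a difference past 1, are shown with the matches in capitals, read in the direction of the gene. Satb1 had 5 windows, of which 3 held GAGGAA and none TGANTCA. Of these, chr17:51812055-51812304 and chr17:51812185-51812434 overlap. The match 201 bases before the start of the former is the match 71 bases before the start of the latter. The Satb1 windows shown are those with the most matches and the most CG steps. The one with the most matches (chr17:51812185-51812434, minus strand) holds GAGGAA in 2 places on the opposite strand, 134 and 71 bases before the start. The other (chr17:51832648-51832897, minus strand) is a CpG-rich start of Satb1 with 41 CG steps and neither motif. The first Hdac9 window (chr12:34528890-34529139, minus strand) holds GAGGAA at its far end and the only TGANTCA match among the member windows, and the second (chr12:34917096-34917345, minus strand) holds GAGGAA on the opposite strand, 238 bases before the start. Hdac7, the member that rose in KI GMP, is shown at one of its 4 starts (chr15:97831496-97831745, minus strand), with 25 CG steps and neither motif, and none of its other 3 windows held one. Chd7, which rose in KI ST-HSC, had no window, so motifs of raised and lowered members were not compared.
Satb1 most matches: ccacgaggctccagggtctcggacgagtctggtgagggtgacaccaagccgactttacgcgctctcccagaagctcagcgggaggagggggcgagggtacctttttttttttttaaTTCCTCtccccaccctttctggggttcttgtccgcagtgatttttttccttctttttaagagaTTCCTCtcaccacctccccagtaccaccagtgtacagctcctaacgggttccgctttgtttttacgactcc
Satb1 most CG: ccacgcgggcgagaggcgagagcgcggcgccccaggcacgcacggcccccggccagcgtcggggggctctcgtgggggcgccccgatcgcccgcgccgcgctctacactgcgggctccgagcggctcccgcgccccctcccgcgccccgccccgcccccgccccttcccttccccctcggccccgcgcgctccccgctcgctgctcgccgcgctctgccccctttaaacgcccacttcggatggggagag
Hdac9 start 1: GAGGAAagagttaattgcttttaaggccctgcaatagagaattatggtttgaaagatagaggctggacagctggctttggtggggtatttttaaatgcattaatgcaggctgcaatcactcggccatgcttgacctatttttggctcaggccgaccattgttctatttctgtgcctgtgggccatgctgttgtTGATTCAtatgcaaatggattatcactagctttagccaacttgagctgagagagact
Hdac9 start 2: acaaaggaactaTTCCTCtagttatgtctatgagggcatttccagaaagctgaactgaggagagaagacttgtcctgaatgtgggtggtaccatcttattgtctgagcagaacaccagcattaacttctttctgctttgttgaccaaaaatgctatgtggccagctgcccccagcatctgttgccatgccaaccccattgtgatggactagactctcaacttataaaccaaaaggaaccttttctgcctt
Hdac7: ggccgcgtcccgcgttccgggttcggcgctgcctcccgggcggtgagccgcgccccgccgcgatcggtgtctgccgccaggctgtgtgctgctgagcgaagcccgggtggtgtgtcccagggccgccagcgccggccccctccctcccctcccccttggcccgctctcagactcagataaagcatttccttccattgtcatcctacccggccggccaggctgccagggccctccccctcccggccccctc

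Each match is a run of letters and not a bound site, and no binding was measured in these samples.

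Within-array percentiles, the share of probe sets with a lower value, describe where a member stood in each population without setting log2 values side by side. Hdac9 was at percentile 66.9 in KI and 75.9 in WT ST-HSC, and at 50.1 and 46.2 in GMP. Tet1 was at 65.4 and 71.8 in ST-HSC and at 48.7 and 66.1 in GMP. Cbx2 likewise stood lower in GMP, at 63.9 in KI and 61.1 in WT against 76.5 and 72.0 in ST-HSC. Chd7 and Tet2 stood higher in GMP of either genotype, with Chd7 at 88.7 and 85.5 against 81.8 and 72.9, and Tet2 at 87.7 and 78.2 against 76.1 and 72.6. Satb1 was at 84.8 in KI and 91.6 in WT ST-HSC and at 88.2 and 86.6 in GMP, so its KI and WT percentiles were in opposite order in the populations. These percentiles were not tested.

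Of 138 further measured genes of the same pathways, 1 passed the test in ST-HSC and 6 in GMP, which is 0.725% and 4.35%, against 3.01% and 2.59% of all genes. In ST-HSC Hdac4, another class IIa deacetylase, rose by 1.17 (SE 0.257, adjusted p = 0.0442). In GMP the remodeler Chd2 rose by 1.84 (adjusted p = 0.0179), the H3 methylase Kmt2c by 1.28 (adjusted p = 0.049) and the dim Polycomb-associated Asxl3 by 1.98 (adjusted p = 0.046). The architectural protein Hmga2, known from fetal stem cells, fell by 1.74 (adjusted p = 0.0437), the corepressor subunit Tbl1xr1 by 0.73 (adjusted p = 0.0189) and Idh2, a metabolic enzyme whose product the Tet enzymes need, by 0.72 (adjusted p = 0.036). By role, the genes called in GMP were 1 of 14 for DNA methylation, 1 of 23 for Polycomb, 1 of 25 for deacetylases and corepressors, 1 of 37 for methylases and demethylases and 2 of 39 for acetyltransferases and remodelers. The median difference of the 138 was 0.12 in ST-HSC, where 93 were positive and 45 negative, and -0.06 in GMP, where 62 were positive and 76 negative.

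**Figure D4:**
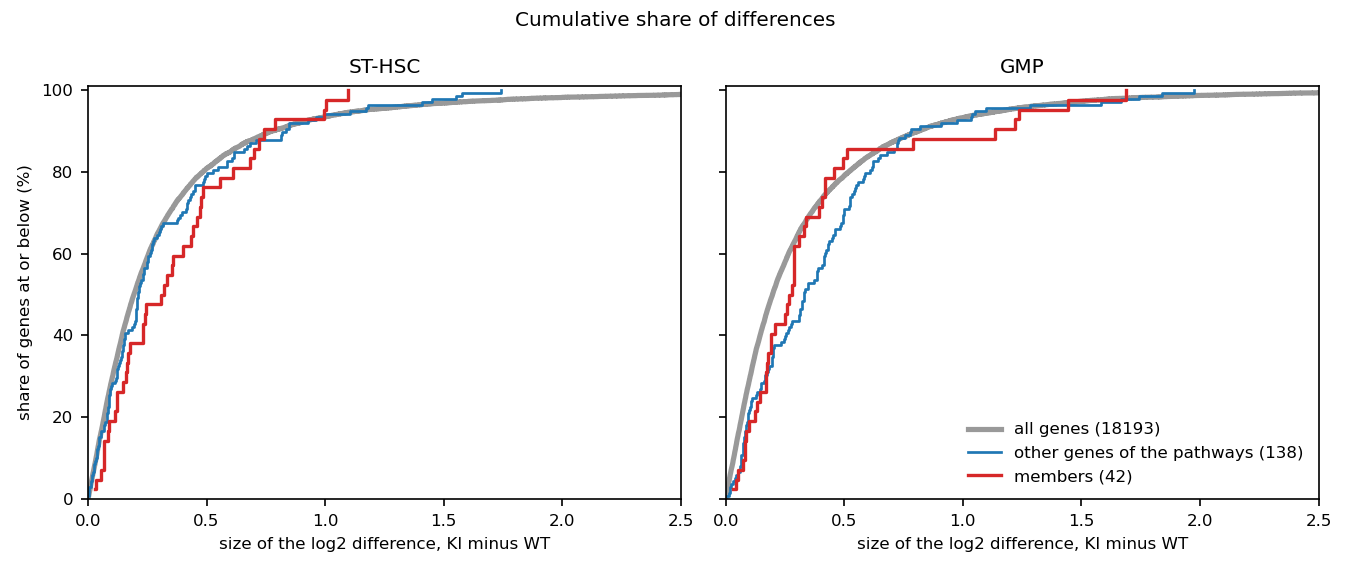
Cumulative share of genes (vertical axis, percent) whose KI minus WT difference has at most the size on the horizontal axis (log2), for all 18193 genes, the 138 further pathway genes and the 42 members, in ST-HSC (left) and GMP (right). The curve of the members runs to the right of that of all genes in ST-HSC at small sizes, with a median size of 0.315 against 0.194, and it ends at 1.10, while 6.54% of all genes exceed 1.

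The median size of a difference was 0.315 for members and 0.194 for all genes in ST-HSC, and 0.274 and 0.197 in GMP. The members were not matched to all genes by level, and the sizes were not tested. At the far end, 2 members (4.76%) exceeded 1 in ST-HSC against 6.54% of all genes, and 5 (11.9%) in GMP against 6.76%. These 5 were Hdac7, Tet1, Tet2, Ezh1 and Smarca2, of which only Hdac7 passed the test. In ST-HSC the largest were Satb1 and Hdac9, both lower in KI, with Chd7 just under 1. The KI minus WT differences of 29 members had the same sign in both populations, a count that was not set against all genes.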

How the data were processed

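Total RNA from sorted cells was hybridized to 12 MG430 v2 arrays, 3 per group, with groups taken from the sample labels. The authors amplified it linearly and ran RMA in R-Bioconductor (version not given in the sources used here), and they deposited the log2 signal of 45101 probe sets. RMA aligns array distributions, so shifts common to all genes are removed, and it compresses differences at low signal. ST-HSC and GMP arrays had separate distributions and appear to have been normalized apart. After 64 control probe sets were left out, limma 3.58.1 (R 4.3.3) was applied to 45037 probe sets (4 group means, all 12 arrays, eBayes, 8 residual and 2.52 prior degrees of freedom), and a call needed an adjusted p (Benjamini-Hochberg, all probe sets) under 0.05. Intervals are at 95% and unadjusted. The platform annotation gave 1 symbol for 34945 probe sets, several for 932 and none for 9160, and only those with 1 symbol were named. The fit was tested on simulated data.

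Members, pathway lists and marker lists were chosen with earlier results of these data known. All members are named. Values of each array are given for members called and for the 4 of each role with the smallest p, and further pathway genes are named where called, with at most 4 per list and comparison. Crebbp, Smarca2 and single probe sets were detailed after their values were seen. Alternatives were the 6 arrays of a comparison alone, array median and quantile scaling, leaving out _x_at and _s_at probe sets, the mean over a gene's probe sets, a filter keeping probe sets of at least 6 in at least 3 arrays, trend and robust eBayes, SAM as in the methods but written anew, the methods' t-test, a replicate block, Xist as a covariate, the WT arrays of high Xist left out, and each array left out. Precision is set by how many arrays there are, since an array has no sequencing depth. Promoter windows leave out the 50 bases after the start. Figures were drawn with matplotlib 3.10.9.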

Additional observations from a re-analysis of the deposited data

Results flagged for a closer look

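The Satb1 probe set 1436182_at stood out because its KI minus WT difference differed between the populations, by 3.46 (SE 0.363, adjusted p = 0.0108 in limma), GMP minus ST-HSC. It was lower in 3 of 3 KI arrays of ST-HSC and higher in 3 of 3 KI arrays of GMP. The brightest Satb1 probe set gave 1.27 (adjusted p = 0.0915). Without KI ST-HSC replicate 2 the difference of 1436182_at was 3.36 with an adjusted p of 0.0524. The call of its rise in GMP was lost in several of the alternative fits, as given above.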

How the results depend on the processing

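No result changed direction with a call. The members called in ST-HSC were 2, and were 1 with the 6 arrays alone (adjusted p of Chd7 0.0699), 0 with SAM, 0 with the methods' t-test, 0 without the Xist-high WT arrays and 3 (Hdac9 added) with the mean over all probe sets. In GMP the 1 call became 2 with the filter on dim probe sets (Tet1), with Xist as a covariate (Smarca2), without the Xist-high WT arrays (Crebbp) and with the mean over all probe sets (Tet1), and 0 with SAM and with the methods' t-test. For the difference between populations 0 became 1 (Satb1) with the mean over all probe sets. When each array was left out in turn, the counts were 1 to 3 in ST-HSC and 1 to 2 in GMP. In ST-HSC 1 was left without KI ST-HSC replicate 1, KI ST-HSC replicate 3 or WT ST-HSC replicate 2, each time losing Chd7, and Crebbp was added without WT GMP replicate 2. In GMP Tet1 was added without KI GMP replicate 1 and Ezh1 without WT GMP replicate 1. The median difference of the members in ST-HSC was 0.053 with Xist as a covariate and 0.040 without the Xist-high WT arrays, against 0.136, and with arrays left out 0.078 to 0.168. In GMP it was -0.0020 without those WT arrays and 0.093 with Xist as a covariate, against 0.093, and 0.028 to 0.148 with arrays left out.

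All probe sets called were 996 in ST-HSC, 162 with SAM, 7 with the methods' t-test, 1404 without the Xist-high WT arrays and 491 to 1039 with arrays left out, being 491 without KI ST-HSC replicate 2 and 573 without KI ST-HSC replicate 3. In GMP they were 959, 246 with the 6 arrays alone, 43 with SAM, 2 with the methods' t-test, 607 with Xist as a covariate, 449 without the Xist-high WT arrays and 548 to 1093 with arrays left out, being 548 without KI ST-HSC replicate 2, 555 without KI GMP replicate 3, 553 without WT GMP replicate 1 and 594 without WT GMP replicate 3. The cause of these moves was not tested. Replicate numbers were not taken as pairs, since deviations of same-numbered KI and WT arrays correlated at 0.034 to 0.074 in ST-HSC and -0.038 to -0.004 in GMP. Same-numbered WT arrays of the populations correlated at 0.062 to 0.164, and their Xist states matched by number, while same-numbered KI arrays correlated at -0.10 to 0.035. With the replicate block 884 and 798 probe sets were called and 2, 1 and 0 members, and no call of a member changed. That block ties same-numbered arrays of both genotypes. A block of same-numbered WT arrays alone was not fitted, so their dependence was not tested, also for the difference between populations. Of 1085 values of single genes under 24 settings, 1052 kept their side of the threshold, 27 lost a call, 6 gained one and 0 reversed. The fit without the Xist-high WT arrays leaves 1 WT array a population, assumed to vary like the other groups. The covariate fit rests on the same contrast among WT arrays, since every KI array is low in Xist, and is not a separate check.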

Other observations

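WT ST-HSC replicate 2 was low for several members. Ring1 was at 6.28 there against 9.19 and 8.40 in the other WT ST-HSC arrays, Kat6a at 6.63 against 8.95 and 9.23, and Smarca2 at 6.77 against 8.53 and 8.21. The second Kat6a probe set was not low there, at 8.77 against 8.56 and 8.59. For Ring1 and Kat6a the 95% interval of the ST-HSC difference ran from -0.97 to 1.68 and from -0.60 to 2.17, the widest of the members. In GMP, Setd2 was at 6.88, 9.36 and 7.95 in the KI arrays, the largest SD of the 42 members in KI GMP, against 7.81, 8.22 and 8.03 in WT.

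By its brightest probe set, only Hdac4 of the measured class IIa deacetylase genes was called in ST-HSC, rising by 1.17 (adjusted p = 0.0442). Hdac5 differed by 0.02 (adjusted p = 0.987), Hdac7 by 0.70 (adjusted p = 0.124) and Hdac9 by -1.01 (adjusted p = 0.101). The dimmer Hdac9 probe set, below the median of every ST-HSC array, was called lower at -1.44. With all probe sets averaged, that one included, Hdac9 was called at -1.22 (adjusted p = 0.0222 in limma).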
